A study of Homo sapiens with 6 samples.

Results

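BR200 was compared with BR100, both clones of the human colon adenocarcinoma line HT-29 that had been selected for growth in bortezomib. The comparison rests on 4 of the 6 arrays of the series, 2 for each clone. It was made across 10370 genes, with 1 value per gene, taken from the brightest of the probe sets that name it and no other gene. The other pair of arrays came from HT-29 labelled wild type and enters the same model. Its values are given beside those of the clones.

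All 3 variants were HT-29 cells in the same medium. According to the labels, cells had been kept in bortezomib raised from 20 to 300 nM in the course of 7 months, and clones had then been isolated in 2 limiting dilutions at 100 or 300 nM over 4 months. This text stands on the wild type samples too. It states neither the dose at which BR200 was cloned nor whether drug was present at harvest. Each resistant variant is a single clone, so a difference between them describes these 2 clones. Every variant was labelled once with the 3' IVT Express kit (100 ng of total RNA) and once with the One-Cycle kit (3 ug). Separate cultures are not stated for a variant's pair of arrays, so every p-value measures only the spread between these arrays, which may be technical.

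Bortezomib blocks the chymotrypsin-like activity of the proteasome, the protease complex that degrades ubiquitin-tagged proteins. Its catalytic beta subunits sit in the 20S core, which is capped by the 19S regulator. Cells exposed to interferon replace these subunits by the immunoproteasome subunits PSMB8, PSMB9 and PSMB10, which favour the production of peptides for MHC class I molecules. Loss of proteasome function is known to set off heat shock, unfolded protein and ATF4 responses, autophagy and, in many cells, apoptosis.

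The clones were close to each other over all genes. The number of genes at a log2 value of 4 or more was 10063 to 10193 on the clones' arrays. BR100 and BR200 correlated across genes at r = 0.986 on the Express arrays and 0.987 on the One-Cycle arrays, whereas the 2 kits of a clone correlated at 0.984 in BR100 and 0.983 in BR200. No p is given with them, since genes do not replicate one another. The 3' minus 5' gap of ACTB, which rises with RNA degradation and short labelling products, was 3.03 (Express) and 1.86 (One-Cycle) in BR100 and 3.24 and 1.76 in BR200. It differed between kits and little between the clones. In wild type the ACTB gap was wider, at 4.22 and 2.99. The same gap of GAPDH was 0.48 and 0.40 in wild type, against 0.22 and 0.16 in BR100 and 0.20 and 0.18 in BR200. Its part in differences from wild type was not tested. The colon epithelial genes CDH1, EPCAM, KRT8, KRT18 and KRT20 lay between 13.31 and 15.43 on every array of both clones. None of the 8 tested colon epithelium markers was called by limma (2 had an unadjusted p under 0.05). Of all genes, 10.6% were called and 31.4% had such a p, so a count over 8 genes says little. CDX1, CDX2 and GPA33 were near background, under 4, on every array. Of the fibroblast markers, COL1A2, COL3A1, DCN, LUM and PDGFRB were near background on every array, while COL1A1 (5.36 to 5.60 on the clones' arrays) and ACTA2 (4.82 to 5.94) were above it and were not called. PTPRC and CD3E of blood cells and PECAM1, VWF, CDH5 and KDR of endothelium were near background, and ENG of endothelium lay between 4.61 and 4.65. LYZ of the blood list was high on every array of the clones, between 14.39 and 14.84. TAGLN of the fibroblast list rose by 1.32 and CD14 of the blood list by 0.78, and their part in the other results was not tested.

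Of the 10370 genes, 1102 were called at an adjusted p under 0.05, which is 10.6%. BR200 was higher in 663 of them (6.39%) and lower in 439 (4.23%). A difference of at least 2-fold was found for 248 called genes (2.39%), of which 198 were higher (1.91%) and 50 lower (0.482%) in BR200. At 4-fold, 55 genes were higher and 4 were lower. The called differences were mostly small: their median size was 0.63 on the log2 scale, and 482 of them (43.7%) were under 1.5-fold. The median over all genes tested was -0.01. Among called genes, 53 rose from near background in BR100, meaning under 4 on both arrays, and 7 fell to near background in BR200. Because those values lie close to the background estimate, the size of such a change depends on it.

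**Figure D1:**
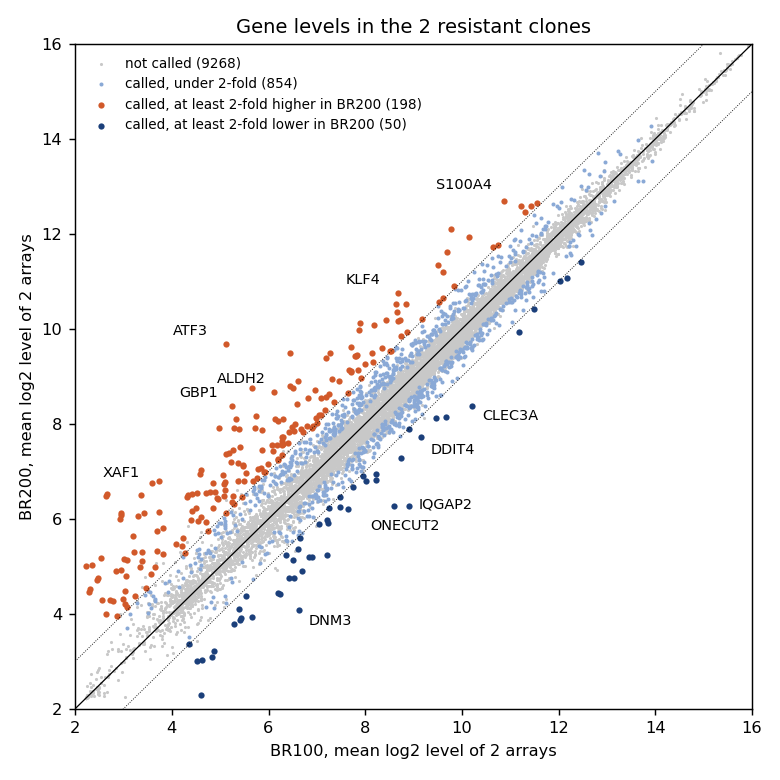
Each point is 1 of the 10370 genes, with its mean log2 level over the 2 BR100 arrays on the x axis and over the 2 BR200 arrays on the y axis; the solid line marks equal levels and the dotted lines 2-fold differences. Most genes lie along the line, and called differences of at least 2-fold are found mostly above it, with 198 genes higher and 50 lower in BR200.

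These counts depended on how the small number of arrays was used. Both clones' pairs of arrays were needed: limma called 0 genes when any one of the 4 resistant arrays was left out (1953 to 2135 had an unadjusted p under 0.05, against 3259 with all arrays), and 61 when either wild type array, which contributes only to the estimate of spread, was left out. All 1102 called genes kept their direction in every one of these fits. They had been called on the same arrays, and all 1102 already had the same direction within both kits. Their kept direction is therefore no separate support. Within a kit, where no test is possible, 328 genes differed at least 2-fold on the Express arrays (3.16%) and 316 on the One-Cycle arrays (3.05%). Both arrays showed 213 of these in the same direction, 64.9% of the Express genes and 67.4% of the One-Cycle genes, and 0 in opposite directions. Probe sets that name no gene, several genes and 1 gene, tested singly, were called at 9.54%, 5.26% and 5.57%. Without the kit as a block, which treats the kits as ordinary replicates, 112 genes were called, 95 of them higher in BR200.

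Among the 10370 genes tested, the largest difference between the clones was in ATF3, a stress-induced transcription factor of the ATF family. Its log2 level was 5.61 on the Express array and 4.63 on the One-Cycle array of BR100, and 9.78 and 9.58 in BR200. Wild type stood at 9.42 and 9.28. ATF3 was thus low in BR100 alone, and BR200 lay at the level of wild type. The difference between the clones was 4.56 (SE 0.24, adjusted p = 0.00525), or 23.6-fold. Of the 3 probe sets for ATF3, 1 was above the filter on low values, and averaging all 3 gave a difference of 2.34. Averages over probe sets, here and below, include those under the filter.

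Several of the next largest rises were in genes that were near background in BR100. CCN2, a matricellular protein and target of the YAP coactivator, was at 2.94 on both BR100 arrays and at 6.13 and 6.12 in BR200, with wild type at 6.97 and 6.53 (difference 3.18, SE 0.14). VNN1, a pantetheinase of the cell surface, stood at 3.67 and 3.51 in BR100, 6.79 and 6.70 in BR200 and 8.02 and 8.12 in wild type (difference 3.15, SE 0.09). DNAJC15, a J-domain protein of the mitochondrial import machinery, was at 3.68 and 2.23 in BR100, 6.73 and 5.45 in BR200 and 9.22 and 8.23 in wild type. Its difference was 3.13 (SE 0.13), but a further probe set above the filter differed by only 0.03. In these genes BR100 was the lowest variant and BR200 lay below wild type.

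Other rises took BR200 above wild type. ECI2, an enzyme of fatty acid oxidation, was at 3.82 and 2.90 in BR100 and 6.93 and 6.09 in BR200, while wild type stood at 2.74 and 2.64 (difference 3.15, SE 0.23). CAVIN2, a coat protein of caveolae, was at 2.94 and 2.92 in BR100, 6.49 and 5.52 in BR200 and 2.36 and 2.23 in wild type (difference 3.08, SE 0.26). Both were near background in BR100 and in wild type, and above it in BR200 only. SYT13, a member of the synaptotagmin family of membrane trafficking proteins, was expressed in all variants: 5.71 and 5.61 in BR100, 8.90 and 8.62 in BR200 and 7.18 and 6.69 in wild type (difference 3.10, SE 0.11). TNFSF10, which encodes the death ligand TRAIL, was at 5.80 and 7.07 in BR100, 9.09 and 9.91 in BR200 and 8.48 and 9.34 in wild type (difference 3.07, SE 0.13), and all 3 of its probe sets above the filter rose by 2.69 to 3.07. Further genes above 4 on every resistant array included FXYD5, a regulator of the sodium pump (2.93), the neutrophil chemokine CXCL2 (2.78), the tubulin-binding protein TPPP3 (2.62) and the mitochondrial aldehyde dehydrogenase ALDH2 (2.54).

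The falls were fewer and smaller. IQGAP2, a scaffold protein of the actin cytoskeleton, was at 8.86 and 8.93 in BR100, 6.46 and 6.07 in BR200 and 9.31 and 9.45 in wild type. BR200 was the low variant, by 2.64 against BR100 (log2 difference -2.64, SE 0.15, adjusted p = 0.00635). DNM3, a dynamin of membrane fission, was at 6.78 and 6.49 in BR100 and at 4.07 on both BR200 arrays, with wild type at 4.03 and 3.49 (difference -2.56, SE 0.14). Here BR100 was the high variant. ONECUT2, a transcription factor of endodermal tissues, was at 8.88 and 8.31 in BR100, 6.60 and 5.94 in BR200 and 10.40 and 10.19 in wild type (difference -2.33, SE 0.13). SLC38A4, an amino acid transporter, was near background in BR200 (2.32 and 2.28) and in wild type (2.32 and 2.23), but reached 4.88 and 4.31 in BR100 (difference -2.30, SE 0.15).

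The rest of the 12 largest falls ran from -1.96 (PUDP, a nucleotide phosphatase) to -1.73 (TMEM117, a membrane protein). They included CLEC3A, a C-type lectin first known from cartilage (-1.83), the G-protein regulator RGS7 (-1.82), the zinc finger gene ZNF331 (-1.79), the kinase PDK3, which inhibits pyruvate dehydrogenase (-1.77), and LMOD3, an actin nucleator of muscle (-1.73). CFTR, the chloride channel of secretory epithelia, was at 6.11 and 6.28 in BR100, 4.75 and 4.12 in BR200 and 8.67 and 8.94 in wild type (difference -1.76, SE 0.24). SSBP2, a DNA-binding partner of LIM-domain transcription complexes and the next in size among genes above 4 on every resistant array, fell by 1.71. On no gene named among these rises and falls did the arrays of the clones overlap. Ranges were separate for 3843 of all 10370 genes (37.1%), and these genes were ranked by the size of the same difference. Of the 24 ranked genes, 14 were also called without the kit block and 11 with the 4 resistant arrays alone. Averaging all probe sets of a gene moved some values by more than 1.5 times: XAF1 to 2.14, SYT13 to 1.74, VNN1 to 1.94, CXCL2 to 0.94, DNAJC15 to 1.05, IQGAP2 to -1.32, RGS7 to -0.93, PDK3 to -1.04 and SSBP2 to -0.44. Such averages include undetected probe sets, such as the other ones of CXCL2, which lay between 2.23 and 2.32 on the clones' arrays.

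**Figure D2:**
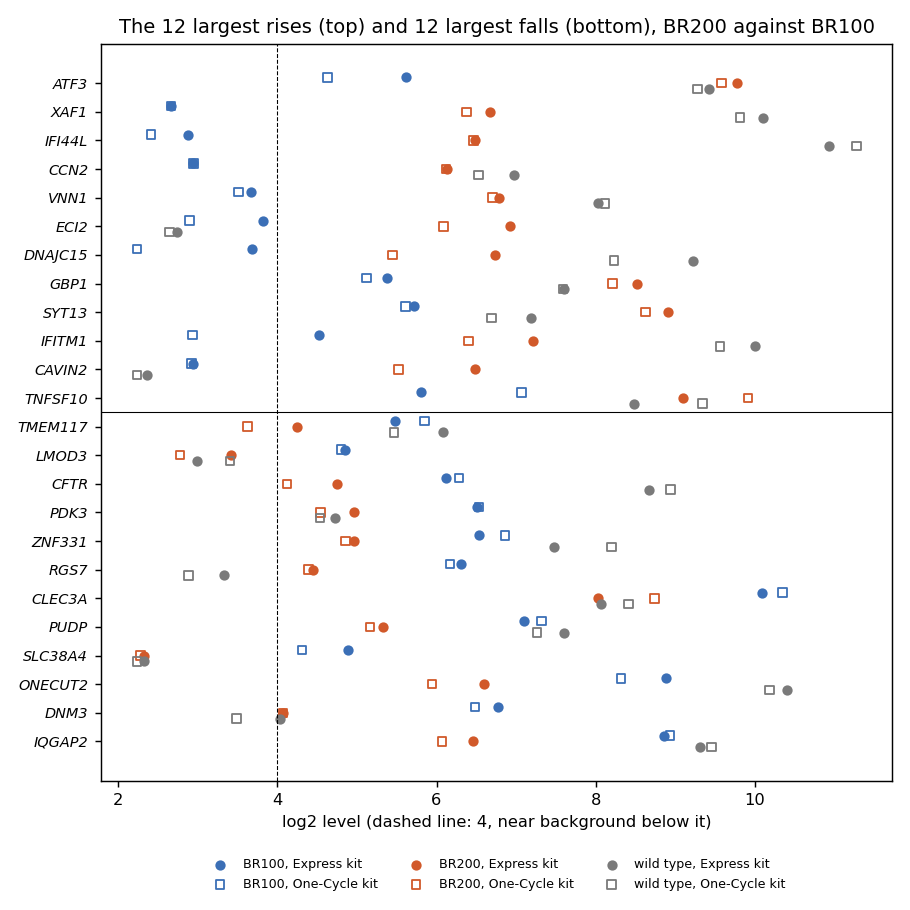
The log2 level on each of the 6 arrays is plotted for the 12 genes that rose most (top) and the 12 that fell most (bottom) in BR200 against BR100, with filled circles for the Express kit, open squares for the One-Cycle kit and 1 colour per variant. The clones' points are apart in every row, as they are for 37.1% of all genes, and the rows were ranked by this difference. Of the 12 rises, 7 start below 4 in BR100. Wild type lies on the BR200 side in some rows (ATF3, DNM3) and on the BR100 side in others (IQGAP2, PUDP).

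Genes induced by interferon formed the group with the largest share of calls among the lists of 12 or more tested genes. Type I interferons act through the kinases JAK1 and TYK2 and a complex of STAT proteins with IRF9, which binds the interferon-stimulated response element in the promoters of its target genes. Of 48 tested interferon-stimulated genes, 39 rose in BR200 against BR100 and 0 fell, compared with 6.39% of all genes higher. The median difference of the 48 was 1.27, and 27 of them differed at least 2-fold upwards. Their median level was 7.82 in BR100, 8.93 in BR200 and 10.89 in wild type, and 46 of the 48 had the order BR100, BR200, wild type from low to high.

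The members that rose most included some near background in BR100, and all 4 given here stayed below wild type in BR200. XAF1, an interferon-induced antagonist of XIAP, was at 2.67 on both BR100 arrays, 6.67 and 6.38 in BR200 and 10.10 and 9.81 in wild type (difference 3.86, SE 0.10, adjusted p = 0.00283). IFI44L stood at 2.87 and 2.41 in BR100, 6.48 and 6.46 in BR200 and 10.93 and 11.28 in wild type (difference 3.83, SE 0.20, adjusted p = 0.00525). IFITM1, which hinders virus entry at membranes, was at 4.52 and 2.93 in BR100, 7.21 and 6.40 in BR200 and 10.00 and 9.57 in wild type (difference 3.08, SE 0.29). EPSTI1 was at 2.23 on both BR100 arrays, 5.58 and 4.45 in BR200 and 8.64 and 8.31 in wild type (difference 2.78, SE 0.29), but its other probe set above the filter differed by 0.15, and their mean by 1.47. The clones' ranges were separate for each, as they were for 37.1% of all genes, and the 2 BR100 arrays of XAF1 held identical values.

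GBP1, a guanylate-binding protein induced strongly by interferon gamma, departed from the common order. It was at 5.38 and 5.12 in BR100, 8.52 and 8.21 in BR200 and 7.61 and 7.59 in wild type (difference 3.12, SE 0.10), so that BR200 was the highest variant. Its 3 probe sets above the filter rose by 3.12 to 3.65. GBP2 was also higher in both clones than in wild type, at 8.42 and 8.35 in BR100, 8.86 and 8.81 in BR200 and 7.35 and 7.31 in wild type (difference 0.45, SE 0.06).

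Most antiviral effectors of the list rose, and those that were not called are given after them. MX1, a GTPase that blocks viral replication, rose by 2.36 and MX2 by 1.56. The RNA-sensing synthetases OAS1, OAS2 and OAS3 rose by 0.91, 2.20 and 0.74, and their relative OASL by 1.64. The IFIT proteins, which bind viral RNA, rose by 1.88 (IFIT1), 1.69 (IFIT2), 1.84 (IFIT3) and 0.83 (IFIT5). Of the ISG15 conjugation system, ISG15 itself rose by 0.82, its E2 enzyme UBE2L6 by 2.20, its ligase relative HERC6 by 1.98 and its protease USP18 by 1.06, while HERC5, the main ISG15 ligase, differed by 1.27 with an adjusted p of 0.051. Averaging HERC6 with its other probe set, which stood at 2.23 on every array of the clones, gave 0.99. The sensors RIGI and IFIH1 rose by 1.28 and 0.94. IFITM1, IFITM2 and IFITM3 have near-identical sequences, and their probe sets cannot be taken as fully separate measurements.

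The 9 members that were not called differed by 0.02 to 1.27. Apart from HERC5 they were IFI16 (0.42), EIF2AK2 (0.31), DTX3L (0.31), TRIM22 (0.25), GBP3 (0.23), SAMD9L (0.14), TRIM21 (0.05) and BST2 (0.02). IFI16, TRIM22 and SAMD9L were near background in both clones, with wild type between 6.07 and 6.35. BST2, which tethers virus particles to the cell surface, was at 9.38 and 9.68 in BR100, 9.54 and 9.56 in BR200 and 10.83 and 10.87 in wild type. Its arrays overlapped between the clones.

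**Figure D3:**
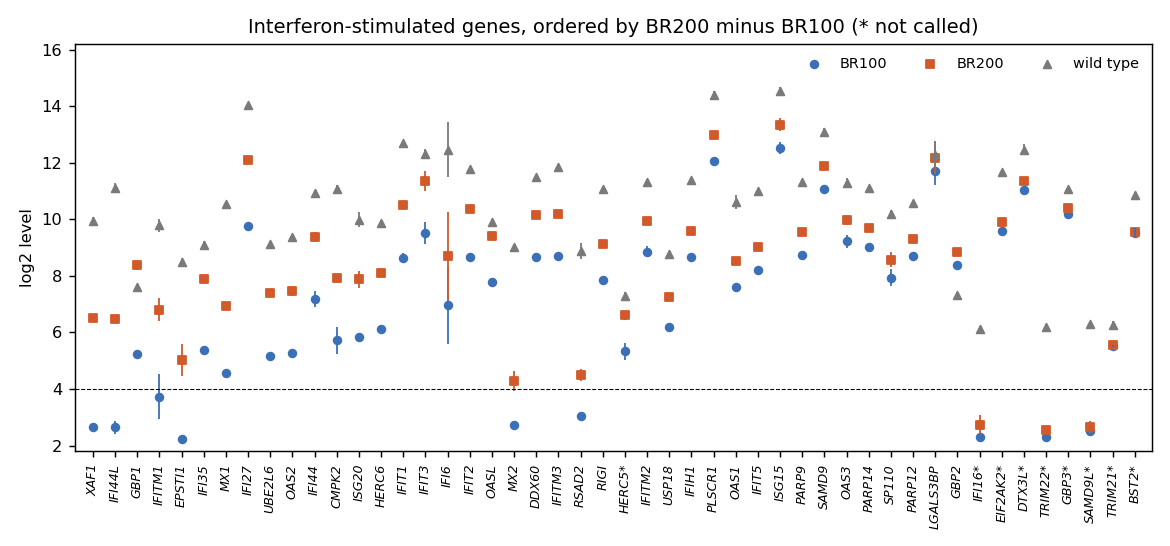
The mean log2 level of the 48 tested interferon-stimulated genes is plotted for each variant, with a line joining the Express and One-Cycle arrays; genes are ordered by their difference between BR200 and BR100. BR200 lies between BR100 and wild type for most genes, GBP1 and GBP2 are highest in BR200, and the 9 genes marked with an asterisk were not called.

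Of 17 tested receptors and signalling factors, 3 rose and 0 fell (6.39% of all genes were higher), with a median of 0.10. IRF9, the DNA-binding subunit of the complex, was at 7.07 and 7.09 in BR100, 8.49 and 8.63 in BR200 and 9.82 and 10.36 in wild type (difference 1.48, SE 0.15, adjusted p = 0.0166). IRF1, a transcription factor induced by interferon gamma, rose by 0.43, and IFNGR1, a chain of the interferon gamma receptor, by 0.42 (0.81 with probe sets averaged). None of the 3 was called without the kit block or with the 4 resistant arrays alone. IFNAR1 and IFNAR2, the type I receptor chains, differed by -0.10 (SE 0.20) and by 0.00 (SE 0.17), and JAK1 by 0.13 (SE 0.07).

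The letters of the interferon response element were looked for in the 250 bases before the transcription start, because binding there is how the complex of IRF9 is known to act. The pattern searched, 10 letters long, was TTTC, any 2 bases and TTTC again, on either strand, in RefSeq promoter sequences of the build GRCh38.p14. A promoter was listed for 40 of the 48 interferon-stimulated genes. A match was present in 24 of the 32 called members and in 2 of the 8 that were not called. The share over the list was 65.0%, against 3.27% of all tested genes with a promoter. The pattern TTCNNNGAA, the core of the gamma-activated site bound by STAT dimers, was present in 9 of the 32 and 2 of the 8 (27.5% of the list against 7.34% of tested genes). Matches of the 2 patterns can overlap, and a match is a description of the letters, not a bound site.

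The windows below show the match, in capitals, with bases on either side, read 5′ to 3′ on the strand of the gene. IFI44L, IFITM1, EPSTI1 and GBP1 are shown as the members with the largest rises that hold a match, and BST2 as a member that holds a match and was not called. Positions are chr1:78620345-78620414 (plus strand) for IFI44L, chr11:313970-314039 (plus strand) for IFITM1, chr13:42992252-42992321 (minus strand) for EPSTI1, chr1:89065296-89065365 (minus strand) for GBP1 and chr19:17405721-17405790 (minus strand) for BST2.
IFI44L: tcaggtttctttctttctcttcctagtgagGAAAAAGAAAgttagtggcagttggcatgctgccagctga
IFITM1: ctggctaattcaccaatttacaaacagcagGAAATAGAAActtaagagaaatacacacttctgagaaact
EPSTI1: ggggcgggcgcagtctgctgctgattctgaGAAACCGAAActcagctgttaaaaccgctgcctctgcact
GBP1: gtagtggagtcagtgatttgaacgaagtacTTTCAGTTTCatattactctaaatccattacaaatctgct
BST2: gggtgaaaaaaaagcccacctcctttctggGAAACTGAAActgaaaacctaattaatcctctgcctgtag
In IFI44L, IFITM1, EPSTI1 and BST2 the match lies on the opposite strand, so the capitals show its complement, and in GBP1 it lies on the strand shown. The matches of EPSTI1 and of BST2 each overlap one for the gamma-activated site. XAF1, the member that rose most, has promoter entries but no match in them.

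Genes of antigen presentation rose as well. Of the 12 tested genes of MHC class I presentation, 9 rose and 0 fell, against 6.39% of all genes higher, with a median of 0.62 and none changed 2-fold. Only 1 was called without the kit block and 0 with the 4 resistant arrays alone (7 and 12 had an unadjusted p under 0.05 in limma). TAP1 and TAP2 form the peptide transporter of the endoplasmic reticulum. TAP1 was at 8.19 and 7.58 in BR100, 9.04 and 8.54 in BR200 and 9.72 and 9.42 in wild type (difference 0.90, SE 0.10). TAP2 differed by 0.99 (SE 0.09), but its other probe sets above the filter differed by 0.29 and -0.27, and the mean of all its probe sets by 0.26. The heavy chain genes HLA-C, HLA-B, HLA-E and HLA-F rose by 0.92, 0.80, 0.74 and 0.45, and the chaperone gene TAPBP rose by 0.42. The HLA genes are close relatives, and their probe sets may share signal. B2M, the light chain, differed by 0.33 (adjusted p = 0.0507) on its brightest probe set, whereas the dimmer ones ranged up to 2.41.

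The proteasome differed between the clones in its interferon-inducible subunits and in no other called gene. PSMB9 was at 6.74 and 6.49 in BR100, 9.16 and 8.67 in BR200 and 7.01 and 6.62 in wild type (difference 2.30, SE 0.09, adjusted p = 0.00345). PSMB8 was at 8.19 and 7.45 in BR100, 9.72 and 9.18 in BR200 and 8.57 and 8.13 in wild type (difference 1.62, SE 0.10). BR200 was the highest variant in both, and BR100 was the lowest. PSMB10 rose by 0.70 (SE 0.06) and PSME1, a subunit of the 11S cap, differed by 0.18 (adjusted p = 0.16).

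The drug target PSMB5 was at 12.44 and 12.07 in BR100 and 12.42 and 12.11 in BR200, against 10.76 and 10.38 in wild type. The clones overlapped and differed by 0.01 (SE 0.07). The other catalytic subunits of the standard core, PSMB6 and PSMB7, differed by 0.04 and 0.12 (SE 0.06 and 0.07), with a second PSMB7 probe set at 1.17. None of the 13 tested 20S core genes, 15 genes of the 19S regulator and 13 assembly and alternative cap genes was called by limma, against 10.6% of all genes. An unadjusted p under 0.05 was found for 1, 3 and 2 of them, and for 31.4% of all genes. NFE2L1, the transcription factor that raises proteasome genes when the proteasome is inhibited, differed by -0.03 (SE 0.08).

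The promoter of TAP1 holds the interferon response pattern and is printed because TAP1 is called and lies in a run of neighbouring genes that all rose. Its window is chr6:32853799-32853868 on the minus strand of GRCh38.p14, with the match in capitals on the strand shown.
TAP1: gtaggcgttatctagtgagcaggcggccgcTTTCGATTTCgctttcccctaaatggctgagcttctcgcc
Over the class I list, the pattern was present in 4 of 8 called members with a promoter entry and in 2 of 3 that were not called, against 3.27% of all tested genes with a promoter.

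Cholesterol synthesis was the pathway with the largest share of falls among lists of 12 or more tested genes. Its enzymes are driven by SREBF2, which is held back by INSIG1 when sterols are plentiful. Of 14 tested genes, 10 fell in BR200 and 0 rose, against 4.23% of all genes lower, and the median was -0.49. INSIG1 was at 11.55 and 11.71 in BR100, 10.78 and 10.84 in BR200 and 9.13 and 9.08 in wild type (difference -0.82, SE 0.08, adjusted p = 0.0167). SC5D, which acts late in the pathway, was at 11.43 and 11.53 in BR100, 10.71 and 10.63 in BR200 and 10.65 and 10.62 in wild type (difference -0.80, SE 0.08, or -0.47 with probe sets averaged). BR100 was the highest variant in both.

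Enzymes from the start to the end of the pathway fell by similar amounts: HMGCS1 by 0.50, IDI1 by 0.48, SQLE by 0.51, LSS by 0.53, MSMO1 by 0.73, NSDHL by 0.48 and DHCR7 by 0.79. SREBF2 itself differed by -0.25 (adjusted p = 0.18). The changes were all under 2-fold, and none of the 14 genes was called without the kit block (9 had an unadjusted p under 0.05) or with the 4 resistant arrays alone (11 had). In BR100, BR200 and wild type the median levels of the list were 10.22, 9.60 and 8.68. The sterol element TCACNNCAC was present in 0 of 9 called members with a promoter entry and in 1 of 4 that were not called. It was present in 3.62% of all tested genes with a promoter, so counts this small say little about the list.

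Aldo-keto reductases, which reduce carbonyl compounds and steroids, rose by up to 2.42. AKR1C1 was at 5.62 and 5.87 in BR100, 8.32 and 8.001 in BR200 and 8.42 and 8.15 in wild type (difference 2.42, SE 0.16). AKR1C3 was at 8.07 and 7.71 in BR100, 10.18 and 10.08 in BR200 and 10.10 and 9.89 in wild type (difference 2.24, SE 0.09), and AKR1C2 rose by 1.98 (SE 0.07). In each, BR100 was low and BR200 stood within 0.2 of wild type. AKR1C1 and AKR1C2 are near-identical and their probe sets are of the kind that can cross-hybridize, so their values are uncertain as separate measurements. With probe sets averaged, AKR1C1 differed by 0.88, but only 2 of its 5 probe sets were above the filter, and these rose by 2.00 and 2.42. AKR1B10 rose by 1.36 from near background. With ALDH2, these were the 5 genes that rose among 16 aldo-keto reductases and aldehyde dehydrogenases, of which 0 fell (6.39% and 4.23% of all genes were higher and lower). AKR1C1, AKR1C3 and AKR1B10 are also targets of NRF2, the regulator of the oxidative stress response. Of the 18 tested NRF2 targets, 4 rose and 0 fell, HMOX1 being the only one outside the previous list (0.72), and the median was 0.10 (6.39% of all genes were higher). NQO1, GCLM and SRXN1, which protect against oxidants, differed by 0.17, 0.14 and 0.02 and were not called.

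The stress pathways named above did not move together. In the ATF4 list, ATF3, PPP1R15A (1.48), which restores translation after stress, and SLC7A11 (0.47), the cystine transporter, rose, while DDIT4 (-1.42), an inhibitor of mTORC1, PHGDH (-0.49), the first enzyme of serine synthesis, and CEBPG (-0.44) fell, among 27 tested genes with a median of 0.02. The list was thus called at 11.1% higher and 11.1% lower, against 6.39% and 4.23% of all genes. DDIT3, the stress factor CHOP, differed by 0.02 (SE 0.08) and ATF4 by 0.35 (adjusted p = 0.051). The unfolded protein response had 1 fall, PDIA4 (-0.50), among 21 genes (4.76%, against 4.23% of all genes lower), and its median was -0.26. Of the 21, 20 were below zero (52.5% of all genes were), and 9 had an unadjusted p under 0.05 in limma (31.4% of all genes had). HSPA5, the main chaperone of the endoplasmic reticulum, was at 13.85 and 14.13 in BR100 and 13.57 and 13.89 in BR200, which overlapped (difference -0.26, adjusted p = 0.0867). Among 16 heat shock chaperones, HSPA2 rose by 0.96 and HSPB1 fell by 0.58 (6.25% each way, against 6.39% of all genes higher and 4.23% lower).

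Of 23 autophagy genes, 6 rose and 0 fell, against 6.39% of all genes higher, with a median of 0.33. Without the kit block 1 was called, and with the 4 resistant arrays alone 0. OPTN and SQSTM1, receptors that link ubiquitinated cargo to the autophagosome, rose by 1.39 and 0.66. MAP1LC3B and GABARAP, which coat the autophagosome membrane, rose by 0.58 and 0.40, WIPI1 by 0.83 and ATG14 by 0.62. Of the hypoxia list, 5 of 17 rose and 0 fell, against 6.39% of all genes higher (median 0.35), led by NDRG1 (1.45), ANKRD37 (1.44, or 0.63 with probe sets averaged) and P4HA2 (0.72). Limma called 0 of the 17 without the kit block and 0 with 4 arrays (6 and 10 had an unadjusted p under 0.05). HIF1A differed by 0.04 (SE 0.07).

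Of 15 pro-apoptotic genes and caspases 3 rose and 0 fell, of 9 anti-apoptotic genes 1 rose and 0 fell, and of 12 death receptors and ligands 2 rose and 1 fell, against 6.39% of all genes higher and 4.23% lower. None of these 7 was called without the kit block. PMAIP1, a BH3-only protein known to accumulate with proteasome inhibitors, was at 8.67 and 8.03 in BR100, 9.79 and 9.41 in BR200 and 10.66 and 10.39 in wild type (difference 1.25, SE 0.11). BIK and BMF, of the same class, rose by 1.27 and 0.55. The anti-apoptotic BCL2L1 rose by 0.52, though 1 of its 4 probe sets went the other way, and MCL1 differed by -0.10 (SE 0.07), with another probe set at -0.96. TNFSF10 and the receptor FAS (0.81, or 0.47 with probe sets averaged) rose, and the receptor TNFRSF1A fell by 0.60. The TRAIL receptors TNFRSF10A and TNFRSF10B differed by 0.21 and -0.08 and were not called.

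Among 28 genes of G2/M and mitosis, 5 fell in BR200 and 0 rose, against 4.23% of all genes lower, and 27 of the 28 were below zero (52.5% of all genes). Limma called 0 of them without the kit block and 0 with 4 arrays (8 and 15 had an unadjusted p under 0.05). The falls were MKI67 (-0.70), CDC25A (-0.66), CENPE (-0.56), KIF20A (-0.50) and AURKA (-0.39), and the median of the list was -0.26. With probe sets averaged, MKI67 was at -0.41 and CDC25A at -0.33. None of the 37 tested DNA replication genes was called (5 had an unadjusted p under 0.05), and their median was -0.08. The list of respiratory chain genes (25), that of ribosomal proteins (19) and that of metallothioneins (6) held no called gene either, with 1, 0 and 1 at an unadjusted p under 0.05. Of all genes, 10.6% were called and 31.4% had an unadjusted p under 0.05 in limma. At that share, the absence of calls among 6 metallothioneins says little about them.

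Signalling and surface genes moved in both directions. Among 22 EGFR ligands and MAPK feedback genes, 4 rose, led by the phosphatase DUSP1 (1.79) and by FOS (1.03), and 4 fell, among them SPRY4 (-1.21) and FOSL1 (-0.83). These are 18.2% each way, against 6.39% of all genes higher and 4.23% lower. Of the 15 tested genes of the YAP and TEAD list, CCN2, CCN1 (1.61) and THBS1 (0.92) rose and the factor TEAD4 fell by 0.65, while 11 were not called. The shares higher and lower were 20.0% and 6.67%. Averaging probe sets brought DUSP1 to 0.95 and THBS1 to 0.49. KLF4, a factor of epithelial differentiation, was at 8.70 and 8.67 in BR100, 10.72 and 10.77 in BR200 and 12.07 and 12.38 in wild type (difference 2.06, SE 0.11), while FOXA3, a factor of endodermal genes, fell by 1.30. Of 17 ion channel genes, CLIC5 (1.41), the calcium-activated chloride channel ANO1 (1.32), KCNK1 (0.74) and KCNE3 (0.63) rose, and CFTR, the bicarbonate transporter SLC4A4 (-1.66) and KCNK5 (-0.56) fell. The shares were 23.5% higher and 17.6% lower, against 6.39% and 4.23% of all genes. With probe sets averaged, CLIC5 differed by 0.60 and KCNK1 by 0.42. CLDN2, a pore-forming claudin, fell by 1.31, and CLDN1, a sealing claudin, rose by 0.75.

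Among cytokine genes, 2 chemokines of one family moved in opposite directions. CXCL2 was at 5.41 and 5.25 in BR100, 8.23 and 7.98 in BR200 and 8.07 and 7.74 in wild type (difference 2.78, SE 0.08). CXCL8, a chemokine of the same family, went the other way, at 11.20 and 10.88 in BR100, 10.28 and 10.00 in BR200 and 6.47 and 5.89 in wild type (difference -0.90, SE 0.10). The probe set used for CXCL2 is of the kind that can cross-hybridize. Its other probe sets lay between 2.23 and 2.32 on the clones' arrays. Whether related genes add to the CXCL2 signal was not tested. The inflammasome substrate IL18 rose by 1.99, the decoy receptor IL1R2 fell by 0.92 and the growth factor TGFB1 rose by 2.03, although its kits were so far apart (2.23 and 5.17 in BR100, 4.65 and 6.82 in BR200) that the clones' ranges overlapped, and averaging probe sets gave 0.98. The calcium-binding S100A4 rose by 1.83, and TNC and FN1, glycoproteins of the matrix, by 2.46 and 0.73.

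Of 12 tested ABC transporters and related genes, 4 rose and 1 fell, against 6.39% and 4.23% of all genes. ABCB1, the P-glycoprotein gene, did not pass the filter on low values, and ABCG2 differed by 0.34 (SE 0.12, adjusted p = 0.141). MVP, the major vault protein, differed by 1.14 (SE 0.23, adjusted p = 0.0544). ABCA1, an exporter of cholesterol (0.72, or 0.43 with probe sets averaged), ABCC3 (0.44) and the peptide transporters TAP1 and TAP2 rose, and ABCC4 fell by 0.41. ABCC3 had a probe set in the opposite direction, and leaving out probe sets that can cross-hybridize brought it to 0.08.

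**Figure D4:**
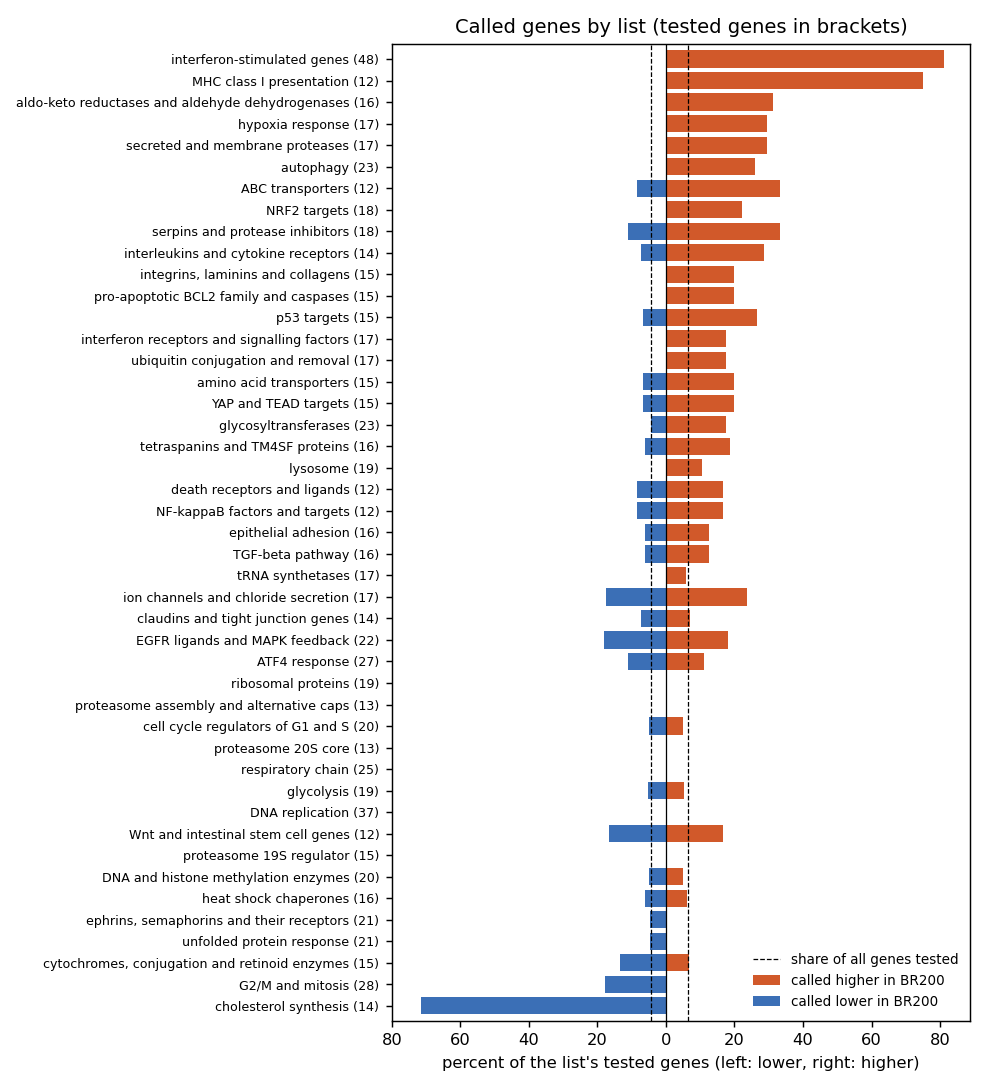
Bars give the percent of each list's tested genes that were called higher (right) or lower (left) in BR200, for the lists with at least 12 tested genes, and dashed lines mark the shares of all genes tested (6.39% and 4.23%). Interferon-stimulated genes (39 of 48) and MHC class I genes (9 of 12) have the longest bars to the right and cholesterol synthesis (10 of 14) the longest to the left, while the proteasome core, 19S regulator and DNA replication lists have none.

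The called genes were not spread evenly over the chromosomes. Chromosome 11 had 614 tested genes, of which 75 were lower in BR200 (12.2%, against 4.23% of all genes) and 25 higher. Its median difference was -0.18, and 75.4% of its genes were below zero, against 52.5% of all genes. The shift was seen with both kits, with medians of -0.15 on the Express and -0.21 on the One-Cycle arrays. Chromosome 6 had 72 higher and 16 lower of 544 genes (13.2% higher, against 6.39%). Without the kit block, 0 genes of chromosome 11 were called lower and 5 higher, and 7 of chromosome 6 were called higher. That fit called only 17 lower and 95 higher among all 10370 genes, so these counts are too small to show a chromosome's shift. Copy number was not measured here.

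To see how these shifts lay along the chromosomes, tested genes were cut into 197 blocks of 50 or more neighbours, a step added after the chromosome counts had been seen. All 12 blocks of chromosome 11 had a median below zero, from -0.10 to -0.27. Of all 197 blocks, those of chromosome 11 included, 10 were below -0.2 and 4 above 0.2, and the median of the blocks was -0.01. Of the low ones, 3 lay outside chromosome 11: a block of chromosome 19 from AKT1S1 to EPS8L1 at -0.26 (-0.10 on the Express and -0.32 on the One-Cycle arrays), the first of chromosome 12 at -0.21 and the first of chromosome X at -0.20. Of the high ones, 3 were the first 3 blocks of chromosome 15, at 0.22 to 0.27, whereas the last block of that chromosome, which ends at TARS3, stood at -0.20 (-0.07 on the Express and -0.23 on the One-Cycle arrays). The other was the last block of chromosome 6, from SLC2A12 to PDCD2, with a median of 0.25. Of its 94 genes 24 were called higher and 1 lower, against 6.39% and 4.23% of all genes. These regional differences are small beside those of the ranked genes, and DHCR7 and SC5D of the cholesterol list, KMT2A (1 of its 7 probe sets above the filter rose), FOSL1, NNMT (-1.05) and SLC43A1 (-1.66), a transporter of branched amino acids, are among the genes of chromosome 11 that fell. SYT13, UBE2L6, IL18 and the IFITM genes lie on chromosome 11 too and rose.

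**Figure D5:**
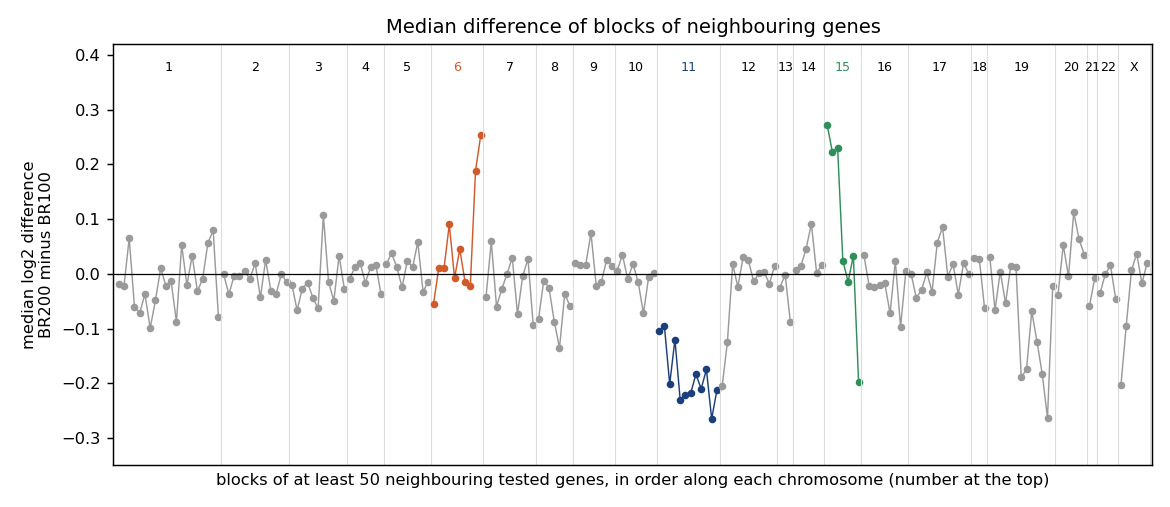
Each point is the median log2 difference (BR200 minus BR100) of a block of at least 50 neighbouring tested genes, in order along each chromosome. All 12 blocks of chromosome 11 lie below zero (-0.10 to -0.27), the first 3 of chromosome 15 and the last of chromosome 6 lie above 0.2, and most other blocks lie near zero.

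On a smaller scale, 2 runs of 5 or more neighbouring tested genes were called in the same direction, both on chromosome 6. The first holds TAP2, PSMB8, the antisense transcript PSMB8-AS1 (2.07), TAP1 and PSMB9, the interferon-inducible cluster of the MHC region. PSMB8 and PSMB8-AS1 overlap. The second holds CLIC5 (1.41), the phosphodiesterase relatives ENPP4 (0.77) and ENPP5 (1.67), the oxysterol hydroxylase CYP39A1 (0.84), the mitochondrial carrier SLC25A27 (0.74) and the adhesion receptor ADGRF1 (0.41). CLIC5 was at 7.78 and 7.61 in BR100, 9.19 and 9.03 in BR200 and 8.37 and 8.38 in wild type. With probe sets averaged, CLIC5 was at 0.60, ENPP5 at 0.89, SLC25A27 at 0.35 and ADGRF1 at 0.07, and 2 of the 4 ADGRF1 probe sets above the filter were below zero. CYP39A1 is uncertain: its 2 other probe sets differed by -0.94 and -0.98, and the mean of all 3 gave -0.36. A further 8 runs of 4 genes and 9 of 3 were found. They include the gene families IFIT1, IFIT2, IFIT3 and IFIT5, AKR1C1, AKR1C2 and AKR1C3 beside KLF6 (1.36, chosen after its value was seen), MX1 and MX2 beside TMPRSS2 (1.51, though its other probe set above the filter differed by 0.03), and OAS1, OAS2 and OAS3, all higher in BR200. CCN2 and VNN1 also lie in a run of 4 on chromosome 6, and LRRK1, CHSY1 (-0.86), SELENOS and SNRPA1 form a run on chromosome 15 that fell.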

How the data were processed

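Expression was measured on 6 Affymetrix arrays of 54675 probe sets. The authors deposited log2 values made with GCRMA, per the submitters' processing notes (version not given in the sources used here), which corrects background, normalizes and summarizes probes. The lowest value, 2.23, was held by 34.8% to 35.2% of the probe sets on a resistant array. No detection calls were used, and the number of arrays and the signal over background limit the precision.

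The annotation named 1 gene for 41097 probe sets (19775 genes), several for 1801 and none for 11777. The brightest probe set naming a gene alone was used. Genes with at least 2 of 6 arrays at log2 4 or more were kept (10370 of 19775). A linear model with variant and labelling kit was fitted on all 6 arrays in limma (version 3.58.1, under R 4.3.3), using lmFit and eBayes. Its test is two-sided with Benjamini-Hochberg adjustment over all kept genes, called at 0.05. Residual degrees of freedom were 2, and the prior contributed 2.33. The median SE was 0.088. The kit pairs the arrays by the labels: each kit labelled 1 array of each variant.

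The fit was tested on simulated data for BR200 against BR100 (10 sets of 10370 genes, 200 of them changed). It found 33.3% of 1.5-fold, 64.6% of 2-fold and 89.2% of 4-fold changes, with a mean of 3.8 false calls. In these sets the residual spreads were shuffled among genes, and the noise was normal and independent between arrays. The link of spread to level was thus not kept, and the figures may not hold for the real arrays.

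Genes were named by rank (12 largest rises and falls among called genes, and 10 each among those above log2 4 on all resistant arrays), as the up to 5 called members of each of 67 lists with the largest change, from a set of 24 genes of proteasome, stress and interferon biology, and from runs of at least 5 neighbours. Members named outside this rule were chosen after their values were seen. The members and lists were chosen with earlier results of these data known. Alternatives covered the filter, probe sets, scaling, block, arrays and variance trend. Averages over probe sets took in those below the filter. Promoters and gene order came from RefSeq (GRCh38.p14). Probe sets naming several genes were given no gene.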

Additional observations from a re-analysis of the deposited data

Results flagged for a closer look

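Probe sets that name no gene, which the comparison of genes does not use, also differed between the clones. When every probe set was tested singly with limma, 228 of 2389 such probe sets were called (9.54%), 198 of them higher and 30 lower in BR200, with the largest rise at 3.51 and the largest fall at -1.70 on the log2 scale. Among probe sets that name several genes, 49 of 931 were called (5.26%), 37 higher and 12 lower, with the largest rise at 6.27 and the largest fall at -2.01. Probe sets that name 1 gene were called at 5.57% in the same test.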

How the results depend on the processing

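The counts of called genes and of those called by at least 2-fold, 1102 and 248, fell to 112 and 95 without the replicate block for labelling kit, to 61 and 61 with the 4 resistant arrays only (1 residual degree of freedom), and to 15 and 3 with no filter on low values. A variance trend over intensity raised the first to 1745. Leaving out single arrays gave 0 to 61 calls, and 0 to 61 by at least 2-fold. All 112 and all 61 calls lay among the 1102. The share of calls higher in BR200 was 60.2%, but 84.8% without the block, 91.8% with 4 arrays, 72.6% with every probe set and 73.3% with no filter. Of the named genes, CYP39A1 reversed (-0.36 with probe sets averaged). Tested singly, 1339 probe sets were called, 542 by at least 2-fold. The other settings kept both counts within 1.5 times. Of 48 interferon-stimulated genes, 19 were called without the block and 12 with 4 arrays, of 12 MHC class I genes 1 and 0, and of 14 cholesterol genes 0 and 0 (unadjusted p under 0.05 in limma: 7 and 12 class I genes, 9 and 11 cholesterol genes). Signal near background limits 53 of the 663 rises.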
